A study of Mus musculus with 4 samples.

Results

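The genes described here encode the enzymes of fatty acid oxidation and ketone body metabolism and the proteins that build peroxisomes. They are 42 genes of 24493 in the deposited table, chosen by symbol, and all 42 were present and tested. No measured value entered the rule, but earlier results of these data were known when it was made. By role, 18 act in mitochondrial oxidation, 2 in ketone body metabolism and 11 in peroxisomal oxidation, and 11 are Pex genes. The table gave RNA levels in 4 libraries of cultured mouse liver cells of C57BL/6 background, which received no treatment. Hepatocytes grown in 3D culture formed the Hep_3D group, and biliary cells derived from hepatocytes and grown in 2D culture formed the Bil_2D group. Each group had 2 libraries, replicate 1 from clone 15C7 and replicate 2 from clone 19H5, so that each library was a single clone and culture format cannot be told apart from cell state. Nothing in the labels gave an age, an allele, a donor animal or a batch, so p-values reflect only the spread among these 4 libraries, and part of that spread may be technical.

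Fatty acids are degraded in both mitochondria and peroxisomes. Carnitine carriers bring long-chain acyl groups into mitochondria, where rounds of dehydrogenation, hydration and thiolysis release acetyl-CoA, part of which the liver turns into ketone bodies. Peroxisomes shorten very long-chain and branched acids by related steps, catalase removes the hydrogen peroxide that forms, and the Pex proteins assemble the organelle and import its enzymes. In the fasted liver the nuclear receptor PPAR alpha, paired with RXR, is known to activate many of these genes.

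Levels are in TPM, a length-corrected share of each library that sums to the same total in every library and keeps no sequencing depth. The most abundant genes took more of this total in Hep_3D: the 50 highest genes of each library held 46.6% and 48.4% of TPM in the Hep_3D libraries, against 22.4% and 24.8% in the Bil_2D libraries. Over all 12336 genes tested the median log2 fold change was -0.73 in TPM, and it was -0.021 once TPM was divided by median-of-ratios size factors. Every log2 fold change is Hep_3D minus Bil_2D of log2(value + 1), which understates changes of low genes, and is given on both scales, in TPM and on this size-factor scale. A gene was called at an adjusted p under 0.05 in limma, and rose or fell, with no scale named, means called on both. In bulk RNA, fewer cells of a type and less RNA per cell cannot be told apart.

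The cell labels were set against marker genes. The 7 hepatocyte markers summed to 46276 and 46888 TPM in Hep_3D, against 1877 and 429.6 TPM in Bil_2D. Of the biliary markers, Krt19 had 1.12 and 15.9 TPM in Hep_3D, against 752 and 1615 TPM in Bil_2D. The other biliary markers were not all present: Epcam stayed between 0.439 and 2.59 TPM and Cftr below 0.08 TPM in all 4 libraries, and the sum of the 7 biliary markers, led by Spp1, was 13144 and 9389 TPM in Hep_3D against 5295 and 8388 TPM in Bil_2D. The Bil_2D cells also held Hnf4a, a hepatocyte factor, at 137 and 84.3 TPM, against 244 and 237 TPM in Hep_3D. The 5 endothelial markers summed to at most 0.371 TPM, the 6 leukocyte markers to at most 13.3 TPM and the 5 adipocyte markers to at most 3.79 TPM in any library, and the 4 red blood cell markers to at most 6.30 TPM. Cd3e, Adipoq, Lep, Ucp1 and Hbb-bs were at 0 in all 4 libraries. The fibroblast and stellate list summed to 179.7 and 3.44 TPM in Hep_3D and 4.07 and 1.12 TPM in Bil_2D, and 178 TPM of the Hep_3D replicate 1 sum was Dcn, while Col1a1 there was at 1.17 TPM. The part of Dcn-expressing cells in the results was not tested.

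Some genes of fatty acid breakdown were several times higher in the hepatocyte cultures while others were lower in TPM. Acadvl, Acaa2, Bdh1, Acad11, Ehhadh, Hsd17b4, Scp2, Phyh and Pex11a rose, 9 of the 42 (21.4%, against 6.69% of all genes tested), and 0 fell (against 9.54%). In TPM, 9 of 42 were called higher (21.4%, against 6.8% of all genes tested) and 10 lower (23.8%, against 51.9%). On the size-factor scale 21 were called higher (50%, against 11.9% of all genes) and 0 lower (against 9.54%), with 32 higher and 2 lower at an unadjusted p under 0.05 (20% and 19.2% of all genes tested). The median log2 fold change of the 42 was 0.089 in TPM and 0.87 on the size-factor scale, beside -0.73 and -0.021 for all genes tested. The groups did not overlap, with Hep_3D higher, for 14 of the 42 in TPM (11.1% of all genes tested) and for 37 on the size-factor scale (33.6%). With Hep_3D lower they did not overlap for 12 in TPM (71.9% of all genes tested) and for 2 on the size-factor scale (34.7%). With clone as a block in the fit, 10 were called higher and 10 lower in TPM (7.93% and 58.1% of all genes tested), and 24 higher and 1 lower on the size-factor scale (14.1% and 11.7%). Together the 42 genes held 0.363% and 0.393% of TPM in Hep_3D, against 0.320% and 0.296% in Bil_2D.

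These counts depended on each library. Without Hep_3D replicate 1, 6 of the 42 genes were called higher and 2 lower in TPM (4.76% and 32% of all genes tested), and without Hep_3D replicate 2, 5 and 3 were (4.82% and 28.7%). Without Bil_2D replicate 1, 5 were called higher and 1 lower (4.37% and 17.8% of all genes), and without Bil_2D replicate 2, 4 and 1 were (3.52% and 17.8%). On the size-factor scale 7 were called higher without Hep_3D replicate 1 (4.17% of all genes), 6 without Hep_3D replicate 2 (3.62%), 3 without Bil_2D replicate 1 (2.33%) and 1 without Bil_2D replicate 2 (1.36%). In these 4 fits 0 of the 42 were called lower on that scale, against 2.46%, 1.35%, 0.422% and 0.162% of all genes in the same order. The TPM calls of Acaa2, Scp2, Phyh and Pex11a held in all 4 of these fits, and on the size-factor scale only that of Acaa2 did.

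Some calls also ended under other settings. With no filter on low values, the TPM calls of Acadl, Eci1 and Bdh1 and the size-factor calls of Hadha, Hadhb, Hadh, Etfdh, Bdh1, Eci2, Pex5 and Pex16 were lost (adjusted p 0.0507 to 0.0822). With no trend of the variance on the level, those of Acadl, Acads, Hsd17b4 and Acaa1a were lost in TPM and those of Hadha, Hadhb, Hadh and Eci2 on the size-factor scale (0.0501 to 0.0745). Under quantile normalization in place of size factors, Hadha, Hadhb and Eci2 were not called (0.0509 to 0.0783). With the 50 most abundant genes left out before scaling, Acadm, Hadha, Hadhb, Hadh, Etfdh, Eci2 and Decr2 were not called higher (0.0519 to 0.155), and Acaa1b and Pex10 were called lower (0.0487 and 0.0361).

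**Figure D1:**
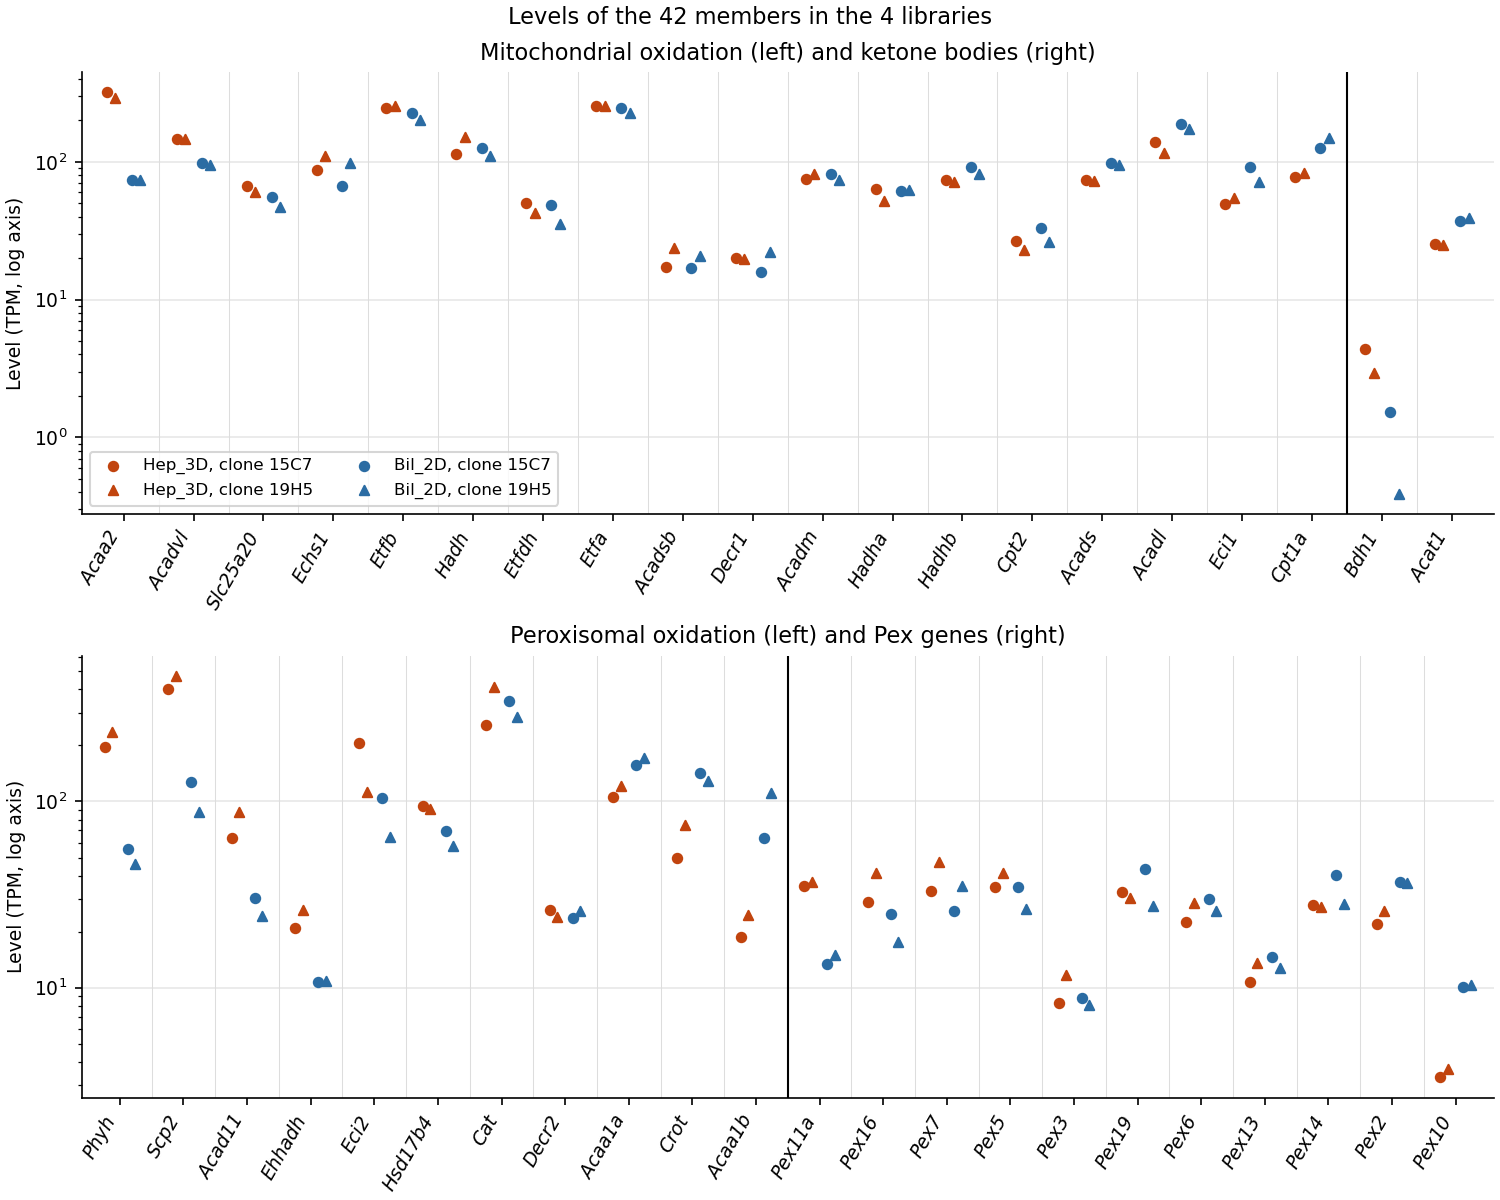
Level of each of the 42 genes in each library, in TPM on a log axis, with Hep_3D points left of Bil_2D points for each gene, circles for clone 15C7 and triangles for clone 19H5. Acaa2, Scp2, Phyh and the low Bdh1 show wide upward gaps, with Scp2 at 402 and 472 TPM in Hep_3D against 127 and 88.1 TPM in Bil_2D. Acaa1b and Pex10 show the widest downward gaps.

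**Figure D2:**
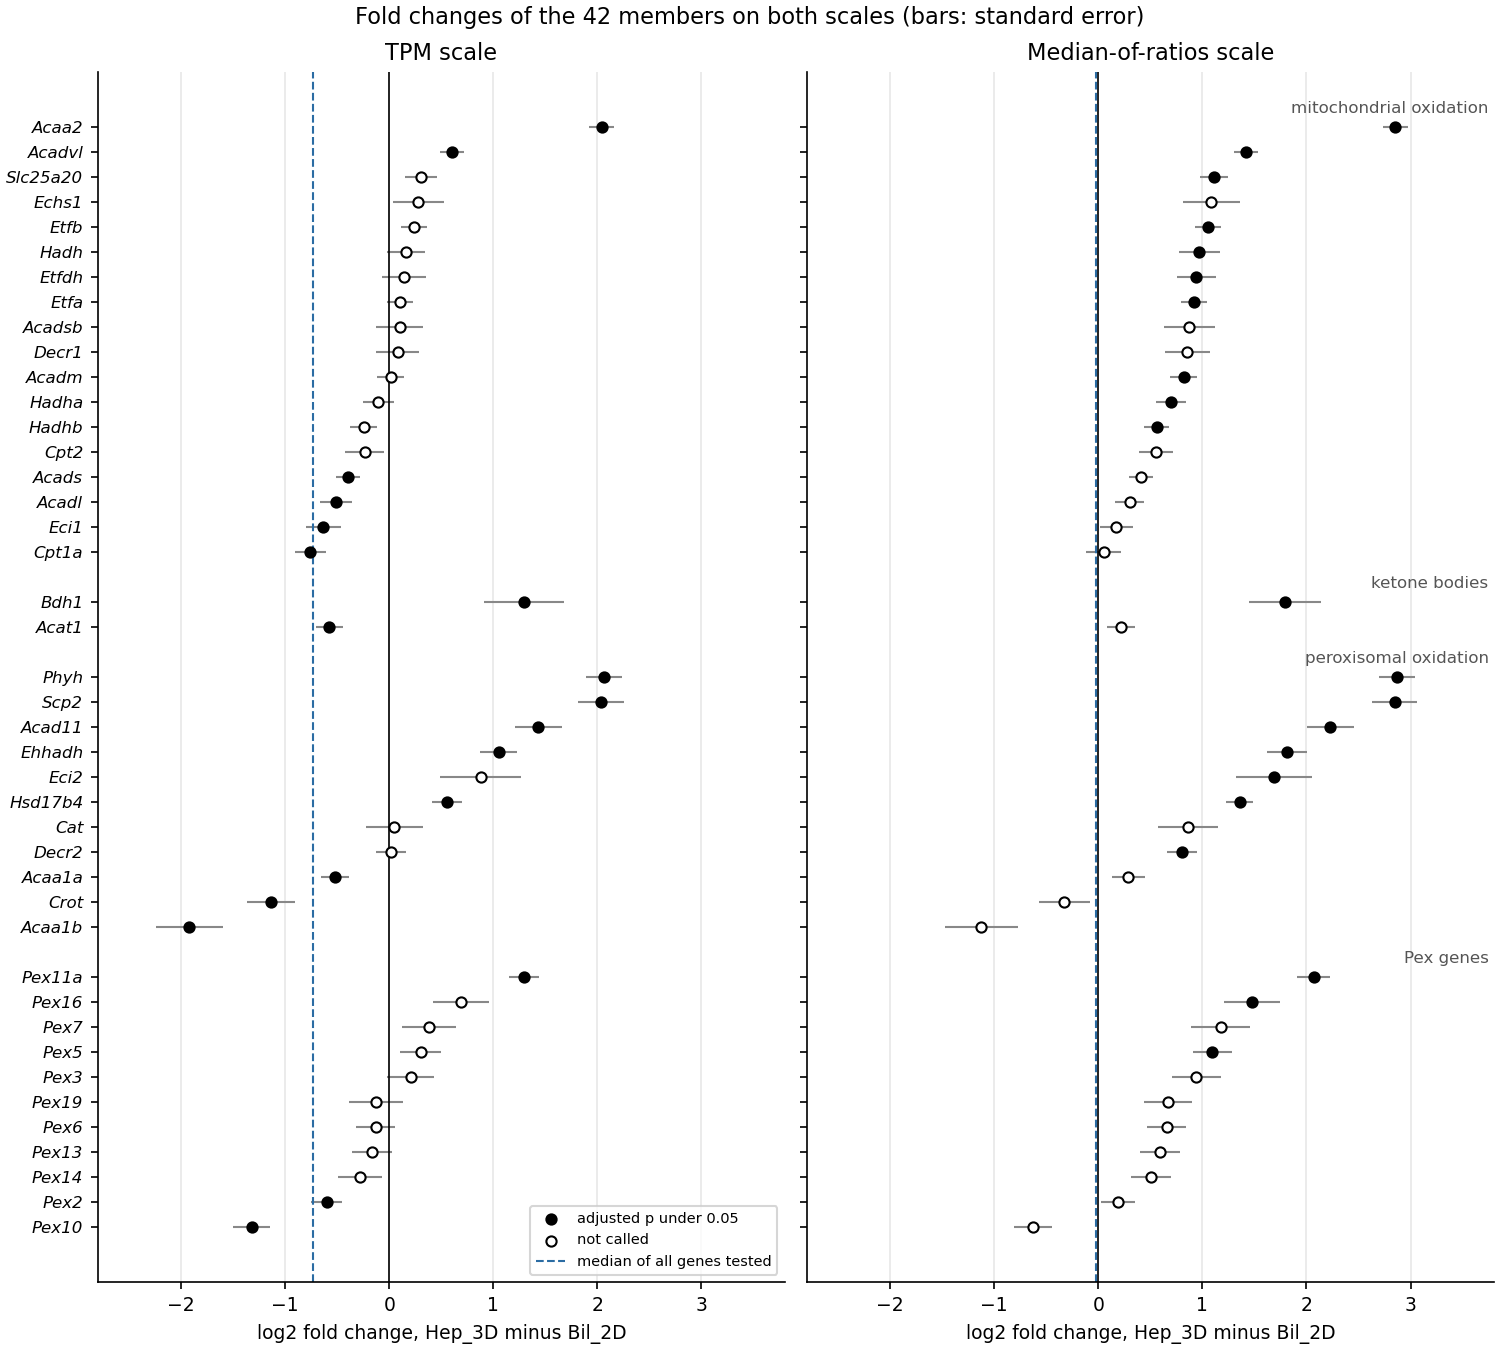
Log2 fold change, Hep_3D minus Bil_2D, of each of the 42 genes in TPM (left) and on the size-factor scale (right), with bars of 1 standard error from limma and filled points for an adjusted p under 0.05. The dashed line is the median of all genes tested, at -0.73 in TPM and -0.021 on the size-factor scale, and 25 and 39 of the 42 genes have a positive fold change. The shares of all genes tested with a positive fold change were not computed.

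Mitochondrial oxidation begins with entry of the acyl group. Cpt1a, the carnitine palmitoyltransferase of the outer membrane that sets the rate of entry, had 77.2 and 83.5 TPM in Hep_3D, against 125 and 149 TPM in Bil_2D. It was called lower in TPM (log2 fold change -0.76, SE 0.15, adjusted p = 0.0154). Its log2 fold change was 0.050 on the size-factor scale (SE 0.17, adjusted p = 0.856). Cpt2, its partner on the inner membrane, had 26.8 and 23.0 TPM in Hep_3D, against 33.3 and 26.1 TPM in Bil_2D. These values overlapped, and Cpt2 was called on neither scale. Slc25a20, the carnitine-acylcarnitine carrier between them, had 67.1 and 60.5 TPM in Hep_3D, against 55.8 and 47.2 TPM in Bil_2D, and was called higher only on the size-factor scale (log2 fold change 1.11, adjusted p = 0.0146). The ratio of Cpt1a to Cpt2 within a library, which does not depend on scaling between libraries, was 2.88 and 3.63 in Hep_3D, against 3.76 and 5.72 in Bil_2D.

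The acyl-CoA dehydrogenases differ in the chain length they prefer. Acadvl, the very long-chain enzyme, rose, with 147 and 147 TPM in Hep_3D, against 98.2 and 94.5 TPM in Bil_2D (log2 fold change 0.61, SE 0.11, adjusted p = 0.0147; 1.42, SE 0.12, adjusted p = 0.00692 on the size-factor scale). Part of its transcript sequence, 32.3% of 31-base words counted on both strands, also occurs in transcripts of Dvl2, which had 7.21 and 7.05 TPM in Hep_3D, against 17.9 and 21.2 TPM in Bil_2D. Acadl and Acads, for long and short chains, were called lower in TPM only. Acadl had 139.7 and 115 TPM in Hep_3D, against 189 and 173 TPM in Bil_2D (log2 fold change -0.51, adjusted p = 0.0458; 0.30, adjusted p = 0.190 on the size-factor scale). Acads had 73.9 and 72.5 TPM in Hep_3D, against 98.5 and 95.4 TPM in Bil_2D (log2 fold change -0.40, adjusted p = 0.0419; 0.41, adjusted p = 0.0758 on the size-factor scale). Acadm, for medium chains, overlapped between groups in TPM, with 74.9 and 81.3 in Hep_3D and 80.9 and 74.1 in Bil_2D. It was called higher only on the size-factor scale (log2 fold change 0.82, adjusted p = 0.0247). The ratio of Acadl to Acadm was 1.86 and 1.42 in Hep_3D, against 2.34 and 2.34 in Bil_2D. Acadsb, for short branched chains, was at 23.8 TPM or less in all libraries and was not called, except higher on the size-factor scale with clone as a block (adjusted p = 0.0312).

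Thiolysis is the last step of each round. Acaa2, the mitochondrial thiolase that releases acetyl-CoA, had 319 and 293 TPM in Hep_3D, against 73.4 and 73.4 TPM in Bil_2D. Its mean was 306 ± 18.7 TPM in Hep_3D and 73.4 ± 0.0430 TPM in Bil_2D (SD, n = 2 each), a ratio of means of 4.17. Acaa2 rose by a log2 fold change of 2.04 (SE 0.12, adjusted p = 0.00354), or 2.85 on the size-factor scale (SE 0.12, adjusted p = 0.00197). It shared 0% of its 31-base words with transcripts of other genes. The trifunctional protein, which carries out the later steps on long chains, has an alpha subunit, Hadha, with 63.0 and 52.1 TPM in Hep_3D against 61.2 and 62.5 TPM in Bil_2D, and a beta subunit, Hadhb, with 74.4 and 71.6 TPM in Hep_3D against 92.4 and 81.6 TPM in Bil_2D. Neither was called in TPM (log2 fold changes -0.11 and -0.25, SE 0.15 and 0.13, adjusted p = 0.561 and 0.168). Both were called higher on the size-factor scale (log2 fold changes 0.70 and 0.56, SE 0.14 and 0.12, adjusted p = 0.0396 and 0.0429). Of the other enzymes, Eci1, an enoyl-CoA isomerase for unsaturated chains, was called lower in TPM, with 49.7 and 54.2 TPM in Hep_3D against 91.4 and 71.9 TPM in Bil_2D (log2 fold change -0.63, adjusted p = 0.0345), and had a log2 fold change of 0.17 on the size-factor scale (adjusted p = 0.478). Hadh, the short-chain hydroxyacyl-CoA dehydrogenase, had 115 and 151 TPM in Hep_3D, overlapping 125 and 111 TPM in Bil_2D. Echs1, the short-chain hydratase, and Decr1, a dienoyl-CoA reductase, overlapped between groups in TPM and were called on neither scale, except Echs1 higher on the size-factor scale with clone as a block (adjusted p = 0.0231).

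Electrons from the dehydrogenases pass through the flavoprotein made of Etfa and Etfb to its dehydrogenase, Etfdh. Etfa had 253 and 254 TPM in Hep_3D, against 248 and 224 TPM in Bil_2D, and Etfb had 245 and 255 TPM in Hep_3D, against 225 and 199.8 TPM in Bil_2D. The ratio of Etfa to Etfb was 1.03 and 0.997 in Hep_3D, against 1.10 and 1.12 in Bil_2D. Etfb shares 62.0% of its 31-base words with Gm45233, which is not a row of the table, so its level and this ratio are uncertain. None of the 3 was called in TPM. Hadh, Etfa, Etfb and Etfdh were called higher on the size-factor scale, with log2 fold changes of 0.97, 0.92, 1.05 and 0.94. In all, 2 of 18 mitochondrial genes were called higher and 4 lower in TPM (11.1% and 22.2%, against 6.8% and 51.9% of all genes tested). With size factors 10 were called higher and 0 lower (55.6% and 0%, against 11.9% and 9.54%), with 15 higher and 0 lower there at an unadjusted p under 0.05 (20% and 19.2% of all genes). Apart from Acaa2 in both scales, and Acadvl on the size-factor scale without either Hep_3D library, every call of this group was lost in each of the 4 fits that left out a library, with adjusted p between 0.0513 and 0.202.

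Hadha and Hadhb lie head to head. Their RefSeq start sites are 273 bases apart, and their promoter windows, from 250 bases before to 50 bases after the start, share 228 bases. The Hadhb window (chr5:30155003-30155302, plus strand, RefSeq on GRCm38) is shown because both subunits are read outward from it, and the capitals mark 4 GC boxes (GGGCGG, or CCGCCC on the other strand).
Hadhb: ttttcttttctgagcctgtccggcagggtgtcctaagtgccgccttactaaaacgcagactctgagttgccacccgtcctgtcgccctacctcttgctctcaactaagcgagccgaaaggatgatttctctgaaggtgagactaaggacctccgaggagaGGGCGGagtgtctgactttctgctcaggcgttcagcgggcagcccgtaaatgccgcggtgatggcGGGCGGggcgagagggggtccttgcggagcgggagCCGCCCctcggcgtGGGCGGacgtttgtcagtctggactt
The ratio of Hadha to Hadhb was 0.848 and 0.728 in Hep_3D, against 0.663 and 0.766 in Bil_2D, so the groups overlapped. Hadhb shares 62.1% of its 31-base words with transcripts of other genes, so its separate level is uncertain.

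Ketone body metabolism has 2 genes among the 42. Bdh1, the mitochondrial hydroxybutyrate dehydrogenase that interconverts the main ketone bodies, was low, with 4.36 and 2.95 TPM in Hep_3D, against 1.53 and 0.389 TPM in Bil_2D. It rose by a log2 fold change of 1.30 (SE 0.39, adjusted p = 0.0450), or 1.80 on the size-factor scale (SE 0.34, adjusted p = 0.0346). At this low level the value depended on the pseudocount: with 0.1 TPM the log2 fold change was 2.05 in TPM and 2.80 on the size-factor scale and was called on neither (adjusted p = 0.0668 and 0.0555), and with 5 TPM it was 0.54 and 0.78. With no filter on low values the calls were lost as well (0.0812 and 0.0684). Acat1, the mitochondrial acetoacetyl-CoA thiolase, had 25.4 and 25.0 TPM in Hep_3D, against 37.2 and 39.1 TPM in Bil_2D, and was called lower in TPM only (log2 fold change -0.58, adjusted p = 0.0218; 0.21, adjusted p = 0.303 on the size-factor scale). The Bdh1 calls were lost without any of the 4 libraries, at adjusted p of 0.0520 to 0.167 in TPM and 0.0950 to 0.155 on the size-factor scale, and so was that of Acat1 in TPM (0.0720 to 0.107).

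As grouped here, with Acad11 and Eci2 counted as peroxisomal only, peroxisomal oxidation held 5 of the 9 genes that rose. Phyh, the hydroxylase that starts alpha-oxidation of phytanic acid, had 195 and 236 TPM in Hep_3D, against 55.9 and 46.0 TPM in Bil_2D (log2 fold change 2.06, SE 0.17, adjusted p = 0.00513; 2.87, SE 0.17, adjusted p = 0.00370 on the size-factor scale). Scp2, which encodes both a sterol carrier protein and a thiolase for branched chains, had 402 and 472 TPM in Hep_3D, against 127 and 88.1 TPM in Bil_2D (log2 fold change 2.04, SE 0.22, adjusted p = 0.00609; 2.85, SE 0.21, adjusted p = 0.00574 on the size-factor scale). For both genes every Hep_3D value lay above every Bil_2D value, and on the size-factor scale the adjusted p was 0.0556 for each without Bil_2D replicate 2. Scp2 shares 41.5% of its 31-base words with Scp2-ps2, which is not a row of the table, and Phyh shares 0%. The table gives 1 value a gene, so the carrier and thiolase forms of Scp2 were not separated.

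The promoter windows of Phyh (chr2:4918746-4919045, plus strand) and Scp2 (chr4:108118498-108118797, minus strand), from RefSeq on GRCm38, are shown as examples picked from the genes that rose. Each holds a match to AGGTCA, the core motif that nuclear receptors bind. The capitals mark that motif, or TGACCT where it is on the other strand. It begins 37 bases after the start site in Phyh and 109 bases before it in Scp2. The Scp2 gene spans chr4:108043830-108144971, so this window lies inside it.
Phyh: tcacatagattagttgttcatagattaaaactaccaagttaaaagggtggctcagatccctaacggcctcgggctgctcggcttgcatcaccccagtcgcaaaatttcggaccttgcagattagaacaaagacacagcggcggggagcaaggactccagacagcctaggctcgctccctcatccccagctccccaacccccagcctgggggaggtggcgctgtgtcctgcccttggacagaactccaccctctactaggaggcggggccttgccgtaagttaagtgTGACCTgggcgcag
Scp2: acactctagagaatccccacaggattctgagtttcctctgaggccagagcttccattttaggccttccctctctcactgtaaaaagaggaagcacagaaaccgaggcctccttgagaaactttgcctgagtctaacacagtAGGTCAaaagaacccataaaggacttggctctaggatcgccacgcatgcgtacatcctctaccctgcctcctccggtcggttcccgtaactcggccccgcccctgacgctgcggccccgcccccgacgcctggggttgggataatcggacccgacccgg
Windows were found for 36 of the 42 genes, 40 windows in all. AGGTCA was present in 17.5% of the 40 windows (Acadm, Acadvl, Cat, Cpt1a, Echs1, Phyh and Scp2), against 16.3% of 32851 RefSeq promoter windows. Of the genes that rose, Bdh1, Acad11, Ehhadh and Pex11a had windows without a match. Of the other carriers, Acadvl rose, Acadm was called higher on the size-factor scale only and Cpt1a lower in TPM only. Cat and Echs1 were called on neither scale, except Echs1 with clone as a block. A link between the motif and the changes was not tested. The direct repeat that PPAR alpha and RXR bind together, 2 copies of AGGNCA with 1 base between them, had 0 matches in the 40 windows, against 0.381% of all windows. GC boxes were present in 77.5% of the 40 windows, against 35.7% of all. The 40 windows had a median GC content of 60.5%, against 52.7% for all windows. CCAAT was present in 40% of the 40 windows and 37.4% of all, and CACGTG in 0 of 40 and 7.15% of all. Both strands were searched, and these matches describe letters within 300 bases only.

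Acad11, an acyl-CoA dehydrogenase with a preference for long chains, had 63.9 and 88.2 TPM in Hep_3D, against 30.3 and 24.3 TPM in Bil_2D, and rose (log2 fold change 1.43, SE 0.22, adjusted p = 0.00989; 2.23, SE 0.23, adjusted p = 0.0107 on the size-factor scale). Peroxisomes have a pair of bifunctional enzymes that join the hydratase and dehydrogenase steps, and both rose. Ehhadh, the L-form, had 20.9 and 26.2 TPM in Hep_3D, against 10.7 and 10.8 TPM in Bil_2D (log2 fold change 1.05, SE 0.18, adjusted p = 0.0115; 1.81, SE 0.19, adjusted p = 0.0111 on the size-factor scale). Hsd17b4, the D-form that handles branched chains and bile acid precursors, had 94.8 and 91.5 TPM in Hep_3D, against 69.1 and 57.8 TPM in Bil_2D (log2 fold change 0.55, SE 0.15, adjusted p = 0.0329; 1.36, SE 0.13, adjusted p = 0.00947 on the size-factor scale). Hsd17b4 was thus the more abundant of the pair in every library, and the ratio of Ehhadh to Hsd17b4 was 0.220 and 0.286 in Hep_3D, against 0.155 and 0.188 in Bil_2D. The calls of Hsd17b4 were lost without any of the 4 libraries, those of Ehhadh without Hep_3D replicate 2 or either Bil_2D library, and those of Acad11 without Bil_2D replicate 2 and, on the size-factor scale, Bil_2D replicate 1. The highest adjusted p was 0.128 for Hsd17b4, 0.0977 for Ehhadh and 0.0968 for Acad11.

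Of the other peroxisomal genes, Eci2, an enoyl-CoA isomerase, had 205 and 113 TPM in Hep_3D, against 105 and 64.7 TPM in Bil_2D. The clone 15C7 library was the higher in each group, but Eci2 was not called between clones (adjusted p = 0.262 in TPM). It was called higher on the size-factor scale (log2 fold change 1.69, SE 0.36, adjusted p = 0.0434), a call lost without any of the 4 libraries (0.0758 to 0.204). In TPM it was not called (0.88, SE 0.39, adjusted p = 0.118) except with clone as a block (adjusted p = 0.0118). Decr2, the peroxisomal dienoyl-CoA reductase, stayed between 23.6 and 26.0 TPM in all 4 libraries. It was called higher on the size-factor scale only (log2 fold change 0.80, adjusted p = 0.0316; 0.107 to 0.158 without any of the 4 libraries). Cat, which encodes catalase, was among the most abundant of the 42 genes, with 257 and 411 TPM in Hep_3D, overlapping 347 and 286 TPM in Bil_2D, and was called on neither scale. Crot, the carnitine octanoyltransferase that hands shortened chains on for export to mitochondria, had 49.9 and 74.7 TPM in Hep_3D, against 142 and 129 TPM in Bil_2D. It was called lower in TPM (log2 fold change -1.14, SE 0.23, adjusted p = 0.0174), with adjusted p up to 0.0888 when either Bil_2D library was left out. On the size-factor scale Crot had a log2 fold change of -0.33 (adjusted p = 0.383).

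Mice have a pair of peroxisomal thiolases that end each round for straight chains, Acaa1a and Acaa1b, and these went the other way from the mitochondrial thiolase Acaa2 in TPM. Acaa1a had 106 and 122 TPM in Hep_3D, against 157 and 171 TPM in Bil_2D (log2 fold change -0.52, SE 0.14, adjusted p = 0.0332). Acaa1b had 18.8 and 24.5 TPM in Hep_3D, against 63.7 and 111 TPM in Bil_2D (log2 fold change -1.92, SE 0.32, adjusted p = 0.0112), the lowest log2 fold change in TPM among the 42 genes. On the size-factor scale Acaa1a had a log2 fold change of 0.29 (adjusted p = 0.253) and Acaa1b at -1.12 (SE 0.35, adjusted p = 0.0916). Acaa1b was called lower there with clone as a block (adjusted p = 0.0309). The ratio of Acaa1b to Acaa1a was 0.177 and 0.202 in Hep_3D, against 0.407 and 0.649 in Bil_2D, with no overlap. In TPM the call of Acaa1b was lost without Hep_3D replicate 1 (adjusted p = 0.0594) and that of Acaa1a without any of the 4 libraries (0.0663 to 0.136). The longest transcripts of this pair are 91% identical over 1639 aligned bases, and 46.1% of Acaa1a and 57.4% of Acaa1b words of 31 bases occur in other genes, so the split between them is uncertain.

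The promoter windows of this pair are shown because the transcripts are alike while the windows differ. That of Acaa1a (chr9:119341044-119341343, plus strand) has 3 GC boxes, in capitals. That of Acaa1b (chr9:119157044-119157343, minus strand) has 0, and both windows are from RefSeq on GRCm38. The Acaa1a gene spans chr9:119341028-119350296, so its window lies inside the gene. The Acaa1b gene spans chr9:119148043-119157093, and its window extends beyond the start of the gene. The 2 windows thus lie at unlike positions in their genes.
Acaa1a: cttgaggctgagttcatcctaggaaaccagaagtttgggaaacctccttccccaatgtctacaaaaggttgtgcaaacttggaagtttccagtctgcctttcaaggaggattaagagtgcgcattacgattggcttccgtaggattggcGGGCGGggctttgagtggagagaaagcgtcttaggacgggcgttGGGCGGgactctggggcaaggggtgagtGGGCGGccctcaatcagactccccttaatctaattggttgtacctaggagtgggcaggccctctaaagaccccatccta
Acaa1b: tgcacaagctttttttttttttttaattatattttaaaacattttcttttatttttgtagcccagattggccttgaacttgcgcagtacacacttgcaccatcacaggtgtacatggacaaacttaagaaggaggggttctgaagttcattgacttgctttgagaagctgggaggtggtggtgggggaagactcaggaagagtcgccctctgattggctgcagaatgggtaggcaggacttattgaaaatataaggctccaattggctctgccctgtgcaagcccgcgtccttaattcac
Among the 11 peroxisomal oxidation genes, 5 were called higher and 3 lower in TPM (45.5% and 27.3%, against 6.8% and 51.9% of all genes tested). With size factors 7 were called higher and 0 lower (63.6% and 0%, against 11.9% and 9.54%), and Acaa1b was the only one lower at an unadjusted p under 0.05. Their median log2 fold change was 0.55 in TPM and 1.36 on the size-factor scale, beside 0.089 and 0.87 for the 18 mitochondrial genes; the difference between the lists was not tested. Their summed TPM relative to that of the mitochondrial genes was 0.758 and 0.882 in Hep_3D, against 0.648 and 0.611 in Bil_2D. With the abundant Scp2, Phyh and Cat left out of the first sum and Acaa2 out of the other, a choice made after the values were seen, it was 0.370 and 0.349 in Hep_3D, overlapping 0.359 and 0.375 in Bil_2D.

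**Figure D3:**
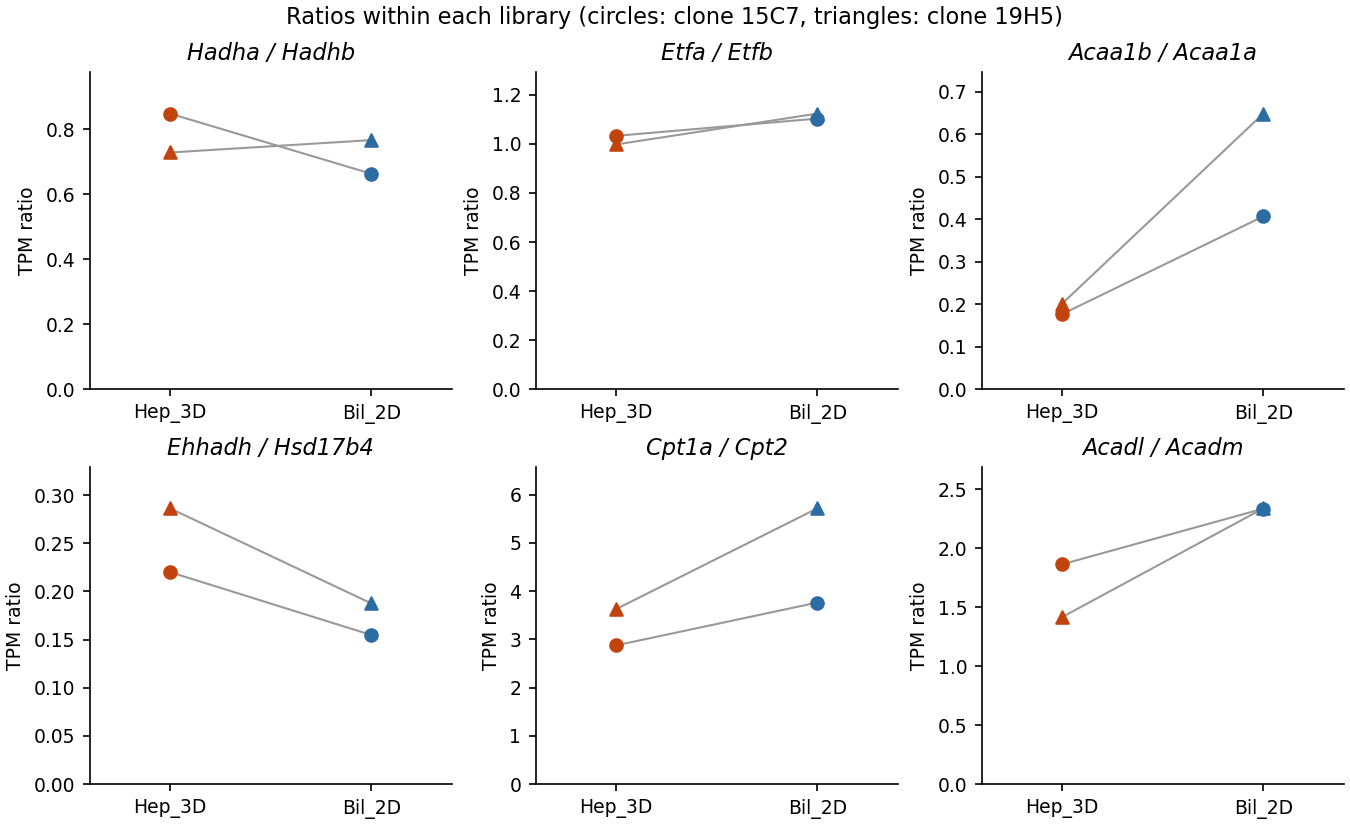
Ratio of TPM within each library for 6 pairs of genes, with Hep_3D left of Bil_2D and lines joining the libraries of a clone (circles 15C7, triangles 19H5), on axes that start at 0. The ratio of Acaa1b to Acaa1a was 0.177 and 0.202 in Hep_3D and 0.407 and 0.649 in Bil_2D, while that of Hadha to Hadhb overlapped between the groups.

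Among the Pex genes only Pex11a, which elongates and divides peroxisomes, rose. It had 35.2 and 37.2 TPM in Hep_3D, against 13.4 and 15.0 TPM in Bil_2D (log2 fold change 1.29, SE 0.15, adjusted p = 0.00622; 2.07, SE 0.16, adjusted p = 0.00583 on the size-factor scale), and on the size-factor scale its adjusted p reached 0.0593 when either Bil_2D library was left out. Pex10 and Pex2, ubiquitin ligases that recycle the import receptor, were called lower in TPM. Pex10 had 3.30 and 3.66 TPM in Hep_3D, against 10.1 and 10.3 TPM in Bil_2D (log2 fold change -1.32, SE 0.17, adjusted p = 0.00765; -0.63, SE 0.18, adjusted p = 0.0757 on the size-factor scale). Its TPM call was lost without either Bil_2D library, at an adjusted p of up to 0.0523. Pex2 had 21.9 and 25.9 TPM in Hep_3D, against 36.9 and 36.5 TPM in Bil_2D (log2 fold change -0.60, adjusted p = 0.0288; 0.19, adjusted p = 0.443 on the size-factor scale), and its TPM call was lost without any of the 4 libraries (0.0561 to 0.124).

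The receptors that carry enzymes into the peroxisome and the proteins of docking and membrane insertion were not called in TPM. Pex5, the main import receptor, had 34.5 and 41.2 TPM in Hep_3D, overlapping 34.7 and 26.6 TPM in Bil_2D, and Pex7, the receptor for the thiolases and Phyh, had 33.1 and 47.4 TPM in Hep_3D, overlapping 25.8 and 35.2 TPM in Bil_2D. Pex5 and Pex16, which helps to bring in membrane proteins, were called higher on the size-factor scale only (log2 fold changes 1.09 and 1.48, adjusted p = 0.0290 and 0.0313), calls lost without any of the 4 libraries (adjusted p from 0.0613 to 0.169). Pex16 had 28.7 and 41.2 TPM in Hep_3D, against 24.8 and 17.6 TPM in Bil_2D. Pex7 was not called there (log2 fold change 1.18, adjusted p = 0.0546), except with clone as a block (adjusted p = 0.0185) or with a filter of 5 TPM (0.0467). Pex13 and Pex14 of the docking complex, Pex3 and Pex19 of membrane protein insertion and Pex6, an ATPase that recycles Pex5, were called on neither scale, with log2 fold changes of -0.28 to 0.20 in TPM and 0.51 to 0.94 on the size-factor scale, except Pex3 higher there with a filter of 5 TPM (adjusted p = 0.0498). In all, 1 of 11 Pex genes was called higher and 2 lower in TPM (9.09% and 18.2%, against 6.8% and 51.9% of all genes tested). With size factors 3 were called higher and 0 lower (27.3% and 0%, against 11.9% and 9.54%), and 8 were higher and Pex10 lower at an unadjusted p under 0.05 (20% and 19.2% of all genes). Their summed level relative to the mitochondrial genes was 0.136 and 0.161 in Hep_3D, overlapping 0.162 and 0.146 in Bil_2D.

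Between the clones no gene was called. In limma with cell state as a term, 0 of the 42 genes and 0 of all genes tested (0%) were called between clones 15C7 and 19H5, with 5 of the 42 and 13% of all genes at an unadjusted p under 0.05 and 1 residual degree of freedom. The log2 differences between the clones, 15C7 minus 19H5, ranged in TPM from -0.58 for Acaa1b to 0.77 for Eci2. On the size-factor scale 37 of the 42 genes were higher in Hep_3D in both clones, and 2, Acaa1b and Pex10, were lower in both. For the same genes the groups did not overlap there, as for 33.6% (higher) and 34.7% (lower) of all genes tested. The share of all genes with the same sign in both clones was not computed. Cpt1a, Eci1 and Crot had opposite signs in the 2 clones.

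**Figure D4:**
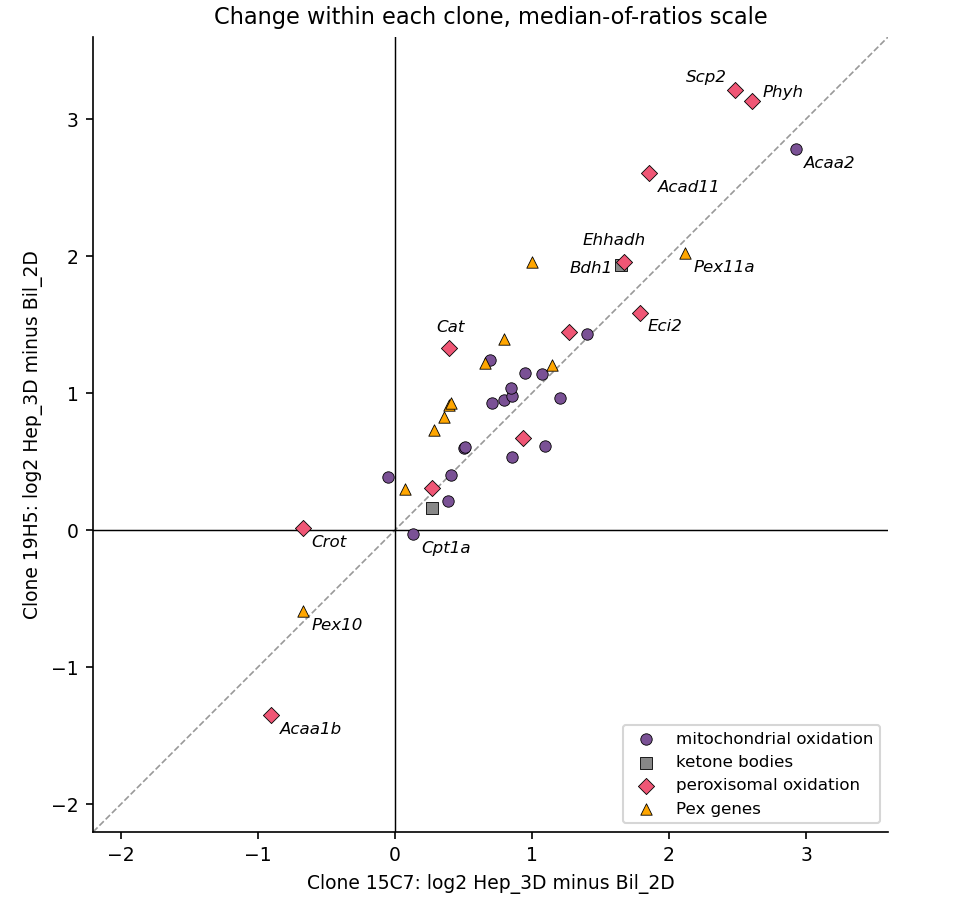
Log2 difference, Hep_3D minus Bil_2D, on the size-factor scale within clone 15C7 (horizontal) and clone 19H5 (vertical), each point a gene, with the dashed line marking equal change. Of the 42 genes, 37 lie above 0 on both axes, Acaa1b and Pex10 lie below 0 on both, and Acaa2, Scp2 and Phyh lie farthest up. The matching shares of all genes tested were not computed.

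The same pathways hold other genes, listed apart from the 42, of which 77 of 88 were tested. In TPM 22 were called higher and 18 lower (28.6% and 23.4%, against 6.8% and 51.9% of all genes tested), and on the size-factor scale 34 and 4 (44.2% and 5.19%, against 11.9% and 9.54%). The counts of the lists that follow stand against the same shares of all genes. Sirt3, a mitochondrial deacetylase of metabolic enzymes, rose, with 20.9 and 26.7 TPM in Hep_3D, against 10.5 and 11.4 TPM in Bil_2D (log2 fold change 1.05, SE 0.19, adjusted p = 0.0127; 1.81 on the size-factor scale). The 7 other ketone body genes tested included Sirt3. In TPM 4 of the 7 were called higher and 0 lower, and on the size-factor scale 5 and 0. The lower counts were also 0 at an unadjusted p under 0.05 (57.7% of all genes tested in TPM and 19.2% on the size-factor scale). The calls of Sirt3 were lost without Hep_3D replicate 2 or either Bil_2D library (adjusted p up to 0.0988).

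Some uptake and activation genes of both organelles also rose. Slc27a2, which imports and activates very long-chain acids, had 110.5 and 137 TPM in Hep_3D, against 0.434 and 0.108 TPM in Bil_2D (log2 fold change 6.62, SE 0.22, adjusted p = 0.00176; 7.10 on the size-factor scale). Acsl1, an acyl-CoA synthetase, had 40.4 and 36.2 TPM in Hep_3D, against 12.5 and 12.4 TPM in Bil_2D (log2 fold change 1.54; 2.31 on the size-factor scale). Its relative Acsl4, with a preference for arachidonate and named after its values were seen, fell, with 58.0 and 67.1 TPM in Hep_3D, against 242 and 238 TPM in Bil_2D (log2 fold change -1.93; -1.12 on the size-factor scale). Mlycd, which removes the malonyl-CoA that inhibits Cpt1a, rose, with 34.9 and 39.2 TPM in Hep_3D against 19.6 and 20.2 TPM in Bil_2D, and Ivd, a dehydrogenase of leucine breakdown, had 66.9 and 79.1 TPM in Hep_3D against 52.9 and 43.5 TPM in Bil_2D. Among 20 other mitochondrial genes tested, 4 were called higher and 4 lower in TPM (20% each) and 5 and 1 on the size-factor scale (25% and 5%). Of these calls Ivd was lost in TPM with clone as a block (adjusted p = 0.0566), with no filter (0.0601) and with no variance trend (0.0579), and on leaving out libraries Ivd was lost in all 4 fits of each scale, Mlycd in 3 of each, Acsl4 in all 4 on the size-factor scale (0.0551 to 0.125) and Acsl1 there without Bil_2D replicate 2 (0.0548).

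Acox2, the acyl-CoA oxidase for branched chains and bile acid precursors, rose, with 64.2 and 111 TPM in Hep_3D, against 22.7 and 13.4 TPM in Bil_2D (log2 fold change 2.21, SE 0.38, adjusted p = 0.0120; 3.00 on the size-factor scale). Hao1, the liver glycolate oxidase, had 27.1 and 15.1 TPM in Hep_3D, against 0.273 TPM in Bil_2D replicate 1, and was listed at 0 in Bil_2D replicate 2. Among 30 other peroxisomal genes tested, 8 were called higher and 8 lower in TPM (26.7% each) and 16 and 2 on the size-factor scale (53.3% and 6.67%). Among 5 other Pex genes tested, 0 were called higher and 1 lower in TPM, with 0 and 2 at an unadjusted p under 0.05 (7.79% and 57.7% of all genes tested), and 1 and 0 on the size-factor scale, with 2 and 0. The calls of Acox2 were lost without Hep_3D replicate 2 or Bil_2D replicate 2, and on the size-factor scale also without Bil_2D replicate 1 (up to 0.112). Hao1 rose, and its call was lost on the size-factor scale without either Bil_2D library (up to 0.0662).

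Regulators differed in direction in TPM. Ppara and Rxra, the receptor pair itself, named after their values were seen, rose. Ppara had 16.8 and 17.6 TPM in Hep_3D, against 1.62 and 2.28 TPM in Bil_2D (log2 fold change 2.64, SE 0.20, adjusted p = 0.00474; 3.28 on the size-factor scale). Rxra had 134 and 148 TPM in Hep_3D, against 38.0 and 14.7 TPM in Bil_2D (log2 fold change 2.52; 3.32 on the size-factor scale), and lost its calls without either Hep_3D library (adjusted p up to 0.0939). Creb3l3, a liver transcription factor of the fasting response, had 89.0 and 66.8 TPM in Hep_3D, against 2.94 and 0.873 TPM in Bil_2D (log2 fold change 4.85). Fabp1, the liver fatty acid binding protein, had 659 and 640.2 TPM in Hep_3D, against 7.08 and 2.17 TPM in Bil_2D (log2 fold change 7.01). Fgf21, a hormone of the fasting response, had 20.9 and 28.6 TPM in Hep_3D, against 0.826 TPM in Bil_2D replicate 1, and was listed at 0 in Bil_2D replicate 2. It rose on both scales, though its size-factor call was lost without Bil_2D replicate 2 (adjusted p = 0.0528).

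Other regulators were called lower, in TPM only. Ppard, a receptor related to PPAR alpha, had 8.21 and 9.56 TPM in Hep_3D, against 23.1 and 22.4 TPM in Bil_2D (log2 fold change -1.27, SE 0.16, adjusted p = 0.00726; -0.51 and not called on the size-factor scale). Esrra, a nuclear receptor of mitochondrial genes, had 48.4 and 66.6 TPM in Hep_3D, against 113 and 112 TPM in Bil_2D (log2 fold change -0.97, adjusted p = 0.0164; -0.17, adjusted p = 0.600 on the size-factor scale). Pparg, the receptor of fat cell formation, had 1.82 and 2.51 TPM in Hep_3D, against 5.52 and 4.28 TPM in Bil_2D (log2 fold change -0.90, adjusted p = 0.0338; -0.28, adjusted p = 0.445 on the size-factor scale). These TPM calls were lost without either Bil_2D library (adjusted p 0.0508 to 0.145), and that of Pparg also without either Hep_3D library or with no filter. Ppard was called lower on the size-factor scale with the 50 most abundant genes left out (adjusted p = 0.0419). Ppargc1a, a coactivator of these receptors, was called on neither scale, with 1.51 and 1.69 TPM in Hep_3D, against 6.01 and 2.55 TPM in Bil_2D.

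Other known targets of the receptor went in both directions. Lpin1, a phosphatidate phosphatase, rose, with 14.5 and 18.8 TPM in Hep_3D, against 6.15 and 7.60 TPM in Bil_2D (log2 fold change 1.16, SE 0.22, adjusted p = 0.0141; 1.89, adjusted p = 0.0151 on the size-factor scale). Its calls were lost without Hep_3D replicate 2 or either Bil_2D library, and on the size-factor scale also without Hep_3D replicate 1 (adjusted p up to 0.0996). Angptl4, an inhibitor of lipoprotein lipase, had 269.5 and 143 TPM in Hep_3D, against 104 and 80.5 TPM in Bil_2D, and was called higher on the size-factor scale (log2 fold change 1.91, adjusted p = 0.0291). That call was lost with no filter (0.0580) and without Hep_3D replicate 1 or either Bil_2D library (up to 0.170). In TPM Angptl4 was not called (1.10, adjusted p = 0.0549), except with clone as a block (0.0173), with a filter of 5 TPM (0.0471) or without Hep_3D replicate 2 (0.0376). Acot1, an acyl-CoA thioesterase, was called lower in TPM only, with 67.9 and 65.8 TPM in Hep_3D, against 138 and 124 TPM in Bil_2D (log2 fold change -0.96, adjusted p = 0.00770; -0.15, adjusted p = 0.411 on the size-factor scale; 0.0505 in TPM without Bil_2D replicate 1). Vnn1, a pantetheinase, overlapped between groups and was called on neither scale. Plin2, a lipid droplet coat protein named after its values were seen, fell, with 121 and 89.9 TPM in Hep_3D, against 429 and 449.6 TPM in Bil_2D (log2 fold change -2.06; -1.25 on the size-factor scale, where it was lost without any of the 4 libraries, 0.0512 to 0.138). Pdk4 had 4.43 and 3.47 TPM in Hep_3D, against 6.09 and 6.89 TPM in Bil_2D, and was called on neither scale, except lower in TPM with no variance trend (adjusted p = 0.0485). Cyp4a10 and Cyp4a14 were at 0.644 to 2.04 TPM in Hep_3D and listed at 0 in both Bil_2D libraries, and were too low to be tested. Of 15 regulators and targets tested, 6 were called higher and 5 lower in TPM (40% and 33.3%) and 7 and 1 on the size-factor scale (46.7% and 6.67%). Ppard, Esrra, Pparg, Ppargc1a, Lpin1, Angptl4, Acot1, Vnn1 and Pdk4 were named after their values were seen.

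**Figure D5:**
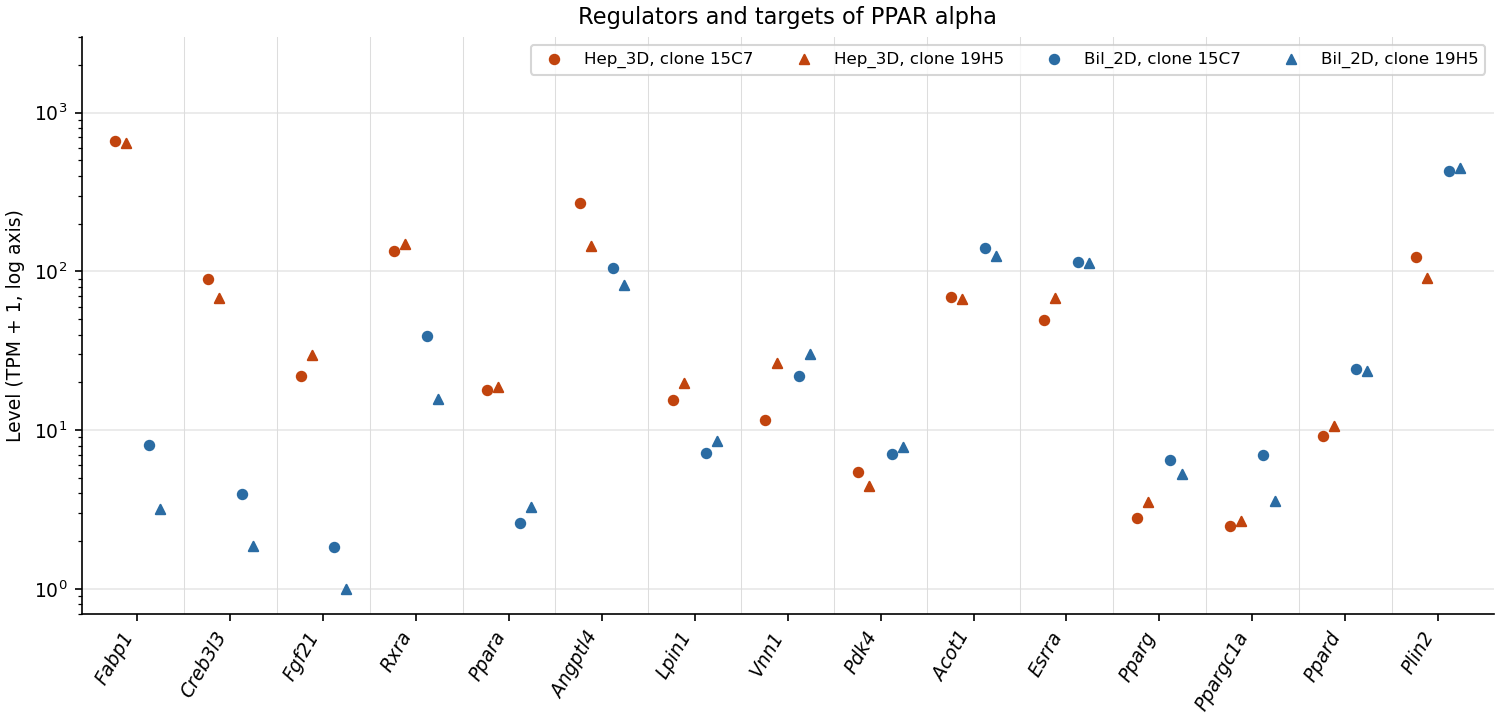
Level, as TPM + 1 on a log axis, of 15 regulators and targets of PPAR alpha in each library, with Hep_3D points left of Bil_2D points, circles for clone 15C7 and triangles for clone 19H5. Fabp1, Creb3l3 and Fgf21 show the widest upward gaps, and Plin2 stands lower, at 121 and 89.9 TPM in Hep_3D against 429 and 449.6 TPM in Bil_2D.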

How the data were processed

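RNA levels were measured by sequencing of total RNA extracted with a Qiagen RNeasy kit, and Novogene built the libraries, per the labels' protocols. For 24493 genes in 4 libraries the authors deposited TPM. Salmon, DESeq2 and mm10 are named in the submitters' processing notes, with no versions and no roles, and the annotation used is not given in the sources used here. TPM keeps no depth, so counting error was unknown and no count model was fitted. The table lists 0 mitochondrially encoded genes.

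Groups came from the titles. A gene was tested if it reached 1 TPM in 2 or more libraries (12336 genes). The test was limma 3.58.1 in R 4.3.3 (lmFit, then eBayes with a trend) on log2(TPM + 1), with 2 residual and 2.29 prior degrees of freedom, and p-values were adjusted over all of them by Benjamini-Hochberg and called under 0.05. The same fit was made on a size-factor scale, for which each library's TPM was divided by a median-of-ratios factor computed from the genes that reached 1 TPM in all libraries. These set the groups apart by 0.82 log2 units. With 2 libraries a group, the smallest two-sided p of an exact permutation test is 0.333.

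Clone numbers in the labels pair the libraries, and deviations of same-clone libraries correlated at 0.414 across genes. Clone as a block was an alternative. Others were pseudocounts of 0.1 and 5, no filter or one of 5 TPM, no trend, a minimum absolute log2 fold change of 1, quantile normalization, dropping the 50 genes of highest level, and leaving out each library, where the lone sample of a group was assumed to have the other group's spread. Running these for the other pathway genes was decided after seeing the data.

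The 42 genes and the other lists were chosen with earlier results of these data known. Genes called in the same direction on both scales, and those whose direction differed between scales while called in either, are given in full. Of each list of other pathway genes, up to 3 with the largest absolute log2 fold change on the size-factor scale among those called on both are named, plus any listed at 0 in a library of one group and at 10 TPM or more in the other. Some genes that this rule would name are not reported here.

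Shared sequence was counted as 31-base words of protein-coding GENCODE M21 transcripts that occur in transcripts of other genes. Over 10% was shared by 12 of the 42 genes and under 1% by 23. Coordinates are GRCm38 (mm10), and promoter windows are from RefSeq GRCm38.p6. None was used for 6 of the 42 genes, among them Acaa2 and Hsd17b4 on chromosome 18. Windows on that chromosome were left out for the 42 genes but kept among all windows.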

Additional observations from a re-analysis of the deposited data

Results flagged for a closer look

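Some of the 42 genes changed in opposite directions in the 2 clones, a difference that was not tested and that rests on 1 library of each state per clone. In TPM this held for 11 genes. The log2 difference, Hep_3D minus Bil_2D, in clone 15C7 less that in clone 19H5 was -0.24 for Acadm, 0.30 for Hadha, -0.57 for Hadh, 0.47 for Decr1, 0.24 for Decr2 and -0.95 for Cat. For the Pex genes it was -0.57 for Pex3, -0.62 for Pex5, -0.54 for Pex6, -0.48 for Pex13 and -0.55 for Pex19. In each of these 5 the TPM level in Hep_3D was below that in Bil_2D in clone 15C7 and above it in clone 19H5. For Pex5 the log2 difference in clone 15C7 was only -0.0087. On the size-factor scale all 11 genes were higher in Hep_3D in both clones. There Pex3 differed by 0.66 in clone 15C7 and 1.22 in clone 19H5, and Cat by 0.40 and 1.33. None of the 11 was called in TPM, an outcome that picking genes with opposite signs in the 2 clones makes likely in advance. The share of all genes with opposite signs was not computed on either scale.

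On the size-factor scale opposite directions held for 3 genes, with differences of 0.16 for Cpt1a, -0.44 for Eci1 and -0.69 for Crot. Crot changed by -0.67 in clone 15C7 and by 0.017 in clone 19H5.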

How the results depend on the processing

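Of 12336 genes tested, 7241 were called in TPM, 4564 with a minimum absolute log2 fold change of 1, 2642 on the size-factor scale and 2627 to 4537 with a library left out. Of the 42 genes, 19 were called in TPM, 10 with that minimum and 5 to 8 with a library left out. The 2642 calls on the size-factor scale became 1587 with no filter and 188 to 818 with a library left out, and the 21 among the 42 genes became 13 and 1 to 7. The 0 calls between clones stayed 0 without cell state as a term and on the size-factor scale.

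With clone as a replicate block, 8150 genes were called in TPM and 3193 on the size-factor scale, and of the 42 genes 20 and 25. The pairing changed no other call of the 42 genes than those given for Eci2, Acadsb, Echs1, Pex7 and Acaa1b. Of the other pathway genes named, it ended the call of Far1 on the size-factor scale (adjusted p = 0.0509) and that of Ivd in TPM, and Angptl4 was called in TPM.

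The split of calls depended on scaling: 11.6% of called genes were higher in TPM and 55.5% on the size-factor scale. Quantile normalization called 18 of the 42 genes higher and 0 lower, beside 1356 and 1744 of all genes, and leaving out the 50 most abundant genes called 14 higher and 2 lower, Acaa1b and Pex10, beside 1133 and 2234. Within each scale, no call of the 42 genes changed sign under any alternative. Between the scales signs did change. Cpt1a, Acadl, Acads, Eci1, Acat1, Acaa1a and Pex2 were called lower in TPM. On the size-factor scale they had positive log2 fold changes, from 0.050 to 0.41, and were not called. Hadha and Hadhb were called higher on the size-factor scale. In TPM they had negative log2 fold changes, -0.11 and -0.25, and were not called. Among uncalled values, that of Cpt1a on the size-factor scale was -0.12 with quantile normalization, that of Gnpat -0.084 and Pdk4 -0.0011, and with the 50 most abundant genes left out it was -0.21, that of Eci1 -0.090, Acat1 -0.042, Pex2 -0.070, Gnpat -0.23, Pdk4 -0.15 and Vnn1 -0.026. With a library left out, uncalled log2 fold changes crossed 0 in these ranges: Acadm -0.051 to 0.074, Acadsb -0.12 to 0.32, Hadha -0.24 to 0.027, Hadh -0.037 to 0.36, Decr1 -0.14 to 0.30, Etfdh -0.081 to 0.37, Decr2 -0.044 to 0.078, Cat -0.29 to 0.38, Pex3 -0.026 to 0.43, Pex6 -0.29 to 0.031, Pex19 -0.45 to 0.20 and Vnn1 -1.14 to 0.045 in TPM, and Cpt1a -0.11 to 0.21, Pdk4 -0.048 to 0.20, Oxct1 -1.10 to 0.17, Esrra -0.42 to 0.087, Ppargc1a -0.79 to 0.067 and Vnn1 -0.40 to 0.86 on the size-factor scale. The causes were not tested. Depth was unknown, and with it the counting error of low genes such as Bdh1.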

Other observations

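Peroxisomes also make the ether bond of plasmalogens, a task apart from fatty acid breakdown, and 3 of its genes, picked after their values were seen, were called lower in Hep_3D in TPM, as were 51.9% of all genes tested. Agps, the alkyl synthase that forms the bond, had 8.28 and 6.48 TPM in Hep_3D, against 32.3 and 30.8 TPM in Bil_2D (log2 fold change -1.97, SE 0.18, adjusted p = 0.00532; -1.21, SE 0.17, adjusted p = 0.0185 on the size-factor scale). Far1, the reductase that supplies the fatty alcohol, had 7.90 and 7.53 TPM in Hep_3D, against 21.8 and 23.1 TPM in Bil_2D (log2 fold change -1.43, adjusted p = 0.00598; -0.67, adjusted p = 0.0482 on the size-factor scale). Gnpat, the acyltransferase of the first step, had 28.2 and 26.1 TPM in Hep_3D, against 48.6 and 44.8 TPM in Bil_2D, and was called lower in TPM (log2 fold change -0.76, adjusted p = 0.0126) but was 0.031 on the size-factor scale (adjusted p = 0.877). The call of Gnpat was lost without Hep_3D replicate 2 or either Bil_2D library (adjusted p up to 0.0757). The size-factor calls of Agps and Far1 were lost without any of the 4 libraries, with adjusted p of 0.0536 to 0.141 for Agps and 0.132 to 0.244 for Far1, and that of Far1 also with no filter, with no variance trend or with a pseudocount of 5 (0.0503 to 0.0767).

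Oxct1, the enzyme that lets tissues use ketone bodies and that adult hepatocytes are known to lack, had 31.4 and 12.1 TPM in Hep_3D, against 43.8 and 53.1 TPM in Bil_2D. It was named after its values were seen and was called on neither scale (log2 fold change -1.25, SE 0.47, adjusted p = 0.0789; -0.47, adjusted p = 0.511 on the size-factor scale), except lower in TPM without Hep_3D replicate 1 (adjusted p = 0.0299).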
